A study of Mus musculus with 72 samples.

Results

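Mice exposed to 1 Gy of neutrons were compared directly with mice exposed to 4 Gy of x-rays, in blood taken 7 days after irradiation. The samples were chosen by their labelled exposure and day, and they are 12 of the 72 arrays of the series, with 6 mice in each group. The 6 sham-irradiated controls of day 7 serve here only to place each exposure against unirradiated blood. All mice were male C57BL/6, aged 8 to 10 weeks, and none carried a transgene. The neutron beam was built to resemble the neutron spectrum of an improvised nuclear device and also delivered some γ rays, whereas the x-rays came from a kilovoltage x-ray tube. Each array held the globin-reduced RNA of 1 mouse, labelled with a single dye. Because whole blood was lysed at collection, fewer cells of a type and less RNA per cell of that type cannot be told apart in any value below.

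Neutrons deposit their energy along dense tracks, so that a given dose damages a cell more than the same dose of x-rays does. The 2 doses compared here are of near equal effect by the design of the study. Within blood, B lymphocytes are among the cells most easily killed by radiation, while T cells, natural killer (NK) cells and monocytes survive better. A damaged cell that stabilizes p53 transcribes genes that stop division, such as *Cdkn1a*, or that start apoptosis. Reticulocytes, the youngest red cells in blood, still hold RNA for heme synthesis and for the removal of organelles, and this RNA is lost as they mature.

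Levels are given as the log2 of the background-corrected intensity of a probe minus the median of the detected probes on the same array, so that 0 is a typical detected probe. A difference is 1 Gy neutrons minus 4 Gy x-rays on this log2 scale, with its standard error (SE), and compares a probe with itself only. A gene was called differentially expressed where limma gave p below 0.001 and the p adjusted by Benjamini and Hochberg over all 10863 genes tested was below 0.05. By this rule 4553 genes, or 41.9%, differed between the exposures. Of these, 3371 (31% of all genes) were higher after neutrons and 1182 (10.9%) were lower after neutrons. The 12 values did not overlap between the exposures for 4618 genes (42.5%). Against controls, 38.4% of all genes were called after neutrons and 17.6% after x-rays. The median difference over all genes was 0.26, and values of a list are read against that number. Counts of a list are read against the 31% of all genes called higher and the 10.9% called lower. The share of the calls that were higher after neutrons moved from 74.0% to 52.7% when each array was centred on all its probes, to 60.4% with quantile normalization, to 47.6% with dim spots left out, to 63.5% after adjustment for probe composition and to 2.04% with centring on the spike-in controls, where the median over all genes was -1.98. It was 92.1% without the detection filter, 60.8% without the variation filter and 88.8% with scan date as a block. Directions stated below hold relative to the array median, and the median of every list tested was below 0 under the spike-in centring.

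The arrays of the 2 groups also differed as measurements. Between 40.2 and 50.3% of the spots (median 45.8%) were well above background after neutrons, between 59.3 and 67.3% (median 64.3%) after x-rays and between 54.3 and 63.9% (median 62.5%) in controls, and the irradiated groups did not overlap (exact permutation test, 2-sided, p = 0.00216, the smallest that 6 against 6 mice can give). The median intensity was 12.6 ± 2.70 (SD, n = 6) after neutrons and 66.1 ± 18.3 after x-rays (p = 0.00216 by the same exact test). All 6 x-ray arrays and 1 neutron array shared a scan date, and the other 5 neutron arrays lay on other dates. With date as a block, which rests the comparison on that 1 neutron array, 2163 genes were called. The difference between that array and the mean of the x-ray arrays had the sign of the overall difference for 4553 of the 4553 called genes, to which that array itself contributed. Each slide held arrays of 1 exposure only, so slide and exposure cannot be told apart, and as a random block slide left 4094 genes. The 6 controls lay on 1 other date with 1 neutron array and no x-ray array, so date and exposure cannot be told apart for x-rays against controls. With date as a block, neutrons against controls gave 1596 calls in place of 4166, a fit that rests on that 1 array. Its difference from the mean of the controls had the same sign for 4154 of the 4166 called genes, to which that array itself contributed. The 12 tested markers of hepatocytes, out of 30 listed, had mean levels of 3.81 in neutron replicate 1 and 4.78, 5.69 and 7.36 in x-ray replicates 2, 4 and 6, against -0.62 to 0.40 in the other neutron mice, -1.57 to -0.71 in the other x-ray mice and -1.85 to 0.51 in controls. None of these 12 markers was called, and without these 4 arrays 2621 genes were called, 2296 higher and 325 lower after neutrons. Of the 105 called genes named in the text, 83 were still called in these 5 against 3 mice. With normexp background correction 504 genes were called in all, 35 of those 105 among them.

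B cell markers were higher after neutrons than after x-rays relative to the array median, and had a median of -1.61 with spike-in centring. Of 19 tested, 9 were called higher and 0 lower, with a median difference of 0.63 beside 0.26 over all genes. *Vpreb3*, which takes part in assembly of the B cell receptor, had levels of 1.51, 1.73 and 2.22 (lowest, median, highest) after neutrons and -1.29, -0.96 and -0.63 after x-rays, against 3.42, 3.92 and 4.28 in controls. The 3 groups did not overlap, and both exposures lay below every control. The difference between exposures was 2.80 ± 0.18 (SE), with an adjusted p of 2.71e-07. *Cr2*, the complement receptor CD21 of B cells, ran from 0.69 to 2.41 (median 1.25) after neutrons and from -1.74 to -1.08 (median -1.13) after x-rays, a difference of 2.74 ± 0.32 (adjusted p = 6.01e-06). The *Cr2* probe holds the repeat CTCTCT described below. The low-affinity IgE receptor *Fcer2a* differed by 2.29 ± 0.23 (adjusted p = 2.29e-06), also without overlap. Its probe has 37 C and T bases, and after adjustment for probe composition the difference was 1.28, still called. *Cd22*, an inhibitory receptor of the B cell surface, differed by 1.25 ± 0.19, and after adjustment for probe composition by 0.57 with no call. With that adjustment 5 of the 19 markers were called higher and 0 lower, a share near the 25.3% of all genes called higher then, with normexp background correction 2 and 0, and without the 4 arrays high in hepatocyte markers 5 and 0. The mean level of the whole list was 1.08 to 1.5 after neutrons, 0.23 to 0.69 after x-rays and 3.11 to 3.37 in controls, with no overlap between any of the groups.

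Against the same 6 controls, the median of the B cell list was -2.19 after neutrons (16 of 19 called lower) and -2.82 after x-rays (18 of 19 called lower), beside 13.3% and 8.5% of all genes called lower. These comparisons share their control mice. MHC class II genes, which present antigen on B cells and other cells, fell in both exposures against controls, with 9 of 10 called lower in each. Between the exposures only *H2-Ob* of these 10 was called, with a difference of 1.23 ± 0.18 (adjusted p = 3.91e-05) and levels of 1.65 to 2.15 after neutrons against 0.29 to 1.06 after x-rays. The median difference of the class II list was -0.23.

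**Figure D1:**
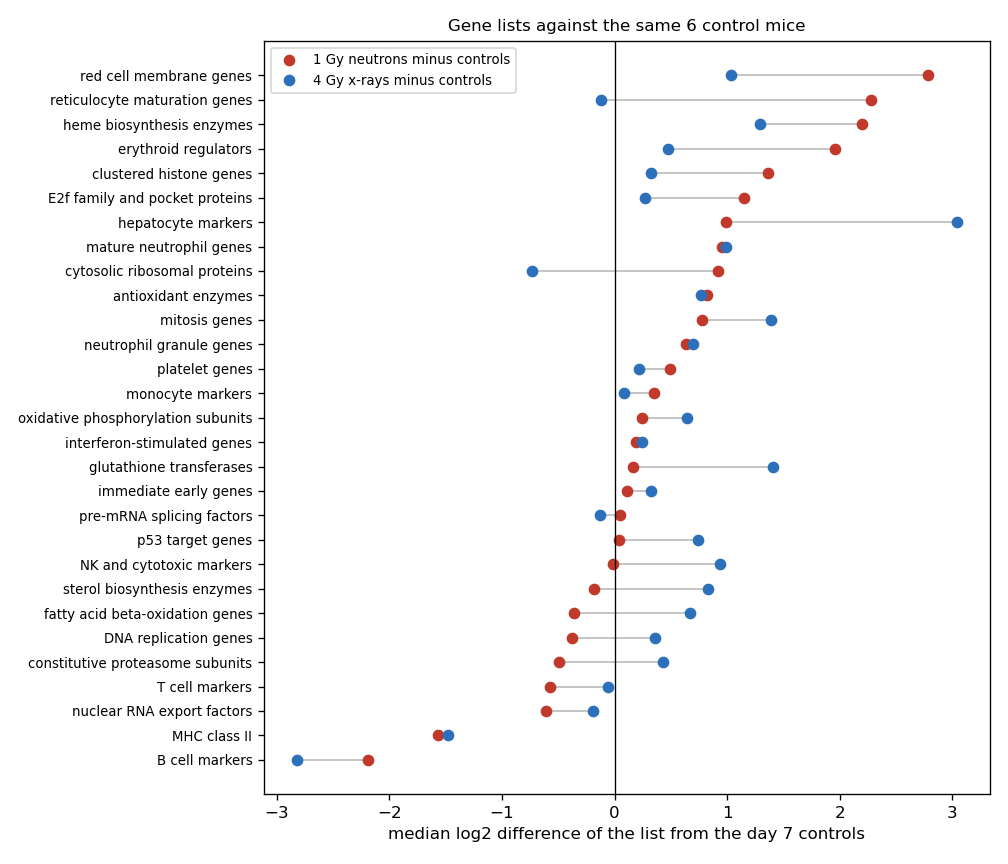
Median log2 difference of each gene list with 8 or more genes tested from the day 7 controls, with 1 Gy neutrons in red and 4 Gy x-rays in blue, with a grey line joining the 2 medians of a list. Both exposures share the same 6 control mice. The B cell list lies at -2.19 and -2.82 and the reticulocyte list at 2.28 and -0.12, relative to the array median.

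NK and cytotoxic genes were lower after neutrons than after x-rays. Of 17 tested, 9 were called lower and 1 higher, the median difference was -0.95, and 16 of 17 differences were below 0. *Gzmb*, the cytotoxic protease granzyme B, had levels of 2.27, 2.58 and 2.89 (lowest, median, highest) after neutrons and 3.66, 3.77 and 4.54 after x-rays, against 1.91, 2.11 and 3.01 in controls. Every x-ray mouse lay above every neutron mouse and every control, while neutron mice and controls overlapped. The difference between exposures was -1.37 ± 0.20 (adjusted p = 3.91e-05). *Klrb1c*, the NK1.1 receptor, differed by -1.33 ± 0.18 (adjusted p = 2.91e-05) and the chemokine *Xcl1* by -1.30 ± 0.19 (adjusted p = 4.58e-05), each without overlap. The member called higher was *Gzmk*, granzyme K, at 4.20 ± 0.42 (adjusted p = 1.87e-06). Its probe has 36 C and T bases, and after adjustment for probe composition the difference was 4.09, still called. Set against controls, the median of the list was -0.01 after neutrons, with 1 of 17 called higher, and 0.94 after x-rays, with 10 called higher, beside 25.1% and 9.06% of all genes called higher. The median between exposures lay between -1.36 and -0.87 under the other scalings save the spike-in centring, where it was -3.19, and was -1.03 without the 4 arrays high in hepatocyte markers.

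T cell markers were called in both directions, more often lower after neutrons. Of 20 tested, 6 were called lower and 2 higher, beside 10.9% and 31% of all genes. The median difference was -0.35. *Zap70*, the kinase that relays the T cell receptor signal, was 2.53 to 2.97 after neutrons and 3.66 to 4.31 after x-rays, a difference of -1.12 ± 0.17 (adjusted p = 5.59e-05). *Cd3g*, a chain of that receptor, differed by -1.08 ± 0.20. Both were called lower after neutrons and neither overlapped. The 2 members called higher were the coreceptors *Cd4*, at 3.06 ± 0.46 (adjusted p = 5.6e-05), and *Cd8b1*, at 1.61 ± 0.33 (adjusted p = 0.000789), whose groups overlapped. The *Cd4* probe ranged from 3.51 to 7.11 among the 6 controls, and the *Cd8b1* probe holds the repeat CTCTCT. In the 8 mice without high hepatocyte markers 3 members were called lower and 1 higher, and *Cd8b1* was not called, at 1.43.

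Monocyte, neutrophil and platelet genes moved in both directions or in few members. Of 16 monocyte markers 3 were called higher and 2 lower, beside 31% and 10.9% of all genes. *Cd14*, a receptor for bacterial lipopolysaccharide, was -1.78 to -0.37 after neutrons and 0.17 to 0.92 after x-rays, a difference of -1.83 ± 0.25 (adjusted p = 2.59e-05), and *Adgre1*, the macrophage marker F4/80, differed by -1.13 ± 0.26. *Itgam*, the integrin CD11b, differed by 3.72 ± 0.36 on its brightest probe, while its other detected probe differed in the opposite direction. *Csf1r*, the receptor for the monocyte growth factor, differed by 1.01 ± 0.20, and 1 of its other 2 probes differed in the opposite direction. Among 13 neutrophil granule genes 2 were called higher, led by the neutrophil elastase gene *Elane* at 2.93 ± 0.53. *Elane* was not called after adjustment for probe composition (1.85) or with quantile normalization (1.73), and ranged from 3.66 to 8.55 among controls. Among 16 genes of mature neutrophils 1 was called, *S100a9*, at 1.34 ± 0.31, which was -0.63 with quantile normalization. Platelet genes gave 4 higher and 1 lower of 18, the latter being the adhesion receptor *Selp* at -1.08 ± 0.26. Without the 4 arrays high in hepatocyte markers the monocyte list had 1 called higher and 1 lower, the platelet list 1 and 0 and both neutrophil lists 0, and *Adgre1* (-1.17), *Csf1r* (0.88), *Elane* (2.58), *S100a9* (1.10) and *Selp* (-1.17) were not called. The median differences of these 4 lists were 0.21, 0.17, -0.09 and 0.26, near that of all genes. In each of the 4 the share called higher was below the 31% of all genes.

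**Figure D2:**
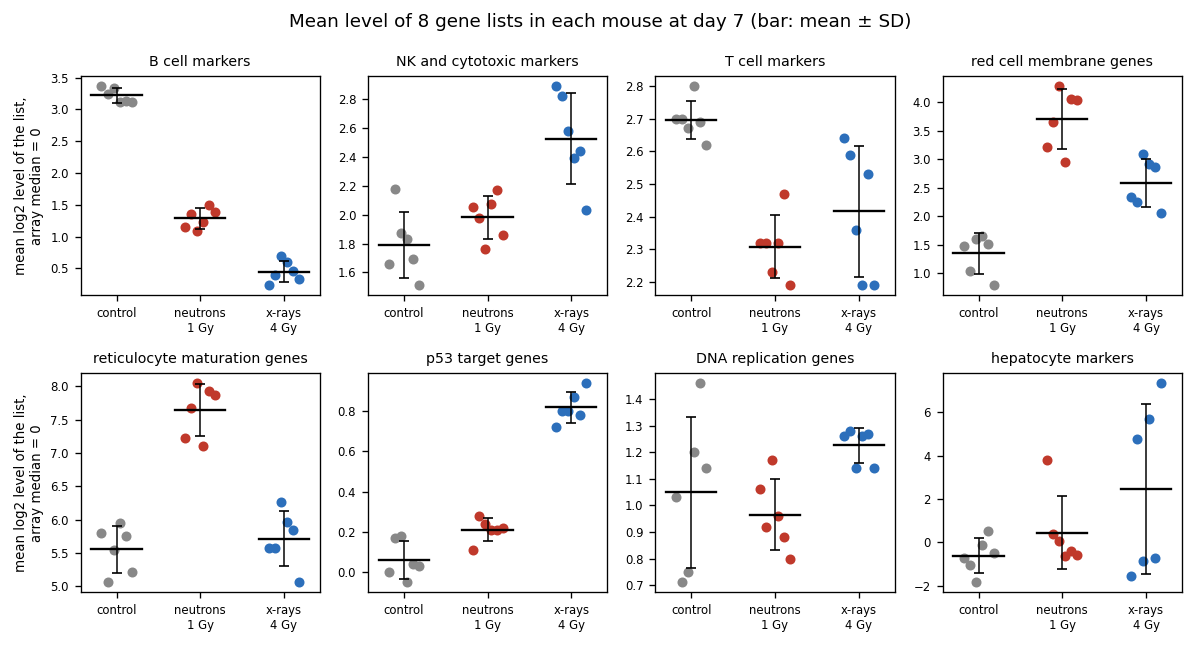
Mean log2 level of 8 gene lists in each mouse (points), with the group mean and SD (bars), for 6 controls, 6 mice given 1 Gy neutrons and 6 given 4 Gy x-rays. B cell markers were 1.08 to 1.5 after neutrons and 0.23 to 0.69 after x-rays, and hepatocyte markers were high in 1 neutron mouse (3.81) and in 3 x-ray mice (4.78 to 7.36).

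Genes of red cells were higher after neutrons relative to the array median, whereas the reticulocyte genes had a median of -0.43 with spike-in centring. Among 15 genes of reticulocyte maturation, 12 were called higher and 0 lower, with a median difference of 1.82. *Bnip3l*, which directs mitochondria to their removal in reticulocytes, had levels of 11.12, 11.46 and 11.75 (lowest, median, highest) after neutrons, 7.40, 8.59 and 9.16 after x-rays and 8.23, 9.38 and 9.73 in controls. All 6 neutron mice lay above all other mice, and the x-ray mice overlapped the controls. The difference was 2.95 ± 0.26 (adjusted p = 8.86e-07). *Bpgm*, the enzyme that makes 2,3-bisphosphoglycerate in red cells, differed by 2.79 ± 0.26 (adjusted p = 1.27e-06) and the ubiquitin-conjugating enzyme gene *Ube2l6* by 2.74 ± 0.20 (adjusted p = 4.76e-07).

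Heme biosynthesis, red cell membrane and erythroid regulator genes had fewer calls. Of 8 heme enzymes 4 were called higher and 0 lower (median 0.93). *Alas2*, which catalyses the first step of heme synthesis in red cells, was 12.04 to 12.77 after neutrons and 8.98 to 10.16 after x-rays, a difference of 2.74 ± 0.22 (adjusted p = 6.26e-07), and *Fech*, which inserts the iron, differed by 2.45 ± 0.21. *Cpox*, an enzyme of the middle of this pathway, was 2.59 to 4.20 after neutrons, 1.48 to 2.09 after x-rays and -0.46 to 0.13 in controls, so the 3 groups did not overlap. Of 17 membrane genes 6 were called higher and 0 lower (median 1.04), which is 35.3% and near the share of all genes called higher, among them that of the cytoskeletal protein *Epb41* (2.56 ± 0.23). Of 12 erythroid regulators 7 were called higher and 0 lower (median 1.00), including the transcription cofactor *Lmo2* at 2.37 ± 0.26, the mitochondrial iron importer *Slc25a37* at 2.58 ± 0.22 and the transferrin receptor *Tfrc* at 2.07 ± 0.40.

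Differences were larger among bright genes and changed with the scaling of the arrays. When all genes were split into 4 equal bins by mean level, the brightest bin had a median difference of 1.14 and 53.8% called higher, against medians of -0.04 to 0.05 in the other bins. Quantile normalization, which gives every array the same distribution, left 3 of the 15 reticulocyte genes called and a median of 0.48. The very bright *Alas2*, *Epb41*, *Fech* and *Slc25a37* then differed by 0.10, -0.11, -0.01 and -0.02, with no call. Less bright genes kept their calls under it, with *Cpox* at 1.45, *Lmo2* at 1.45 and *Tfrc* at 1.98. Under cyclic loess 7 of the 15 reticulocyte genes were called, with a median of 0.67, and after adjustment for probe composition 11 were called, with a median of 1.94, while normexp left 0 called, with a median of 0.76. Without the 4 arrays high in hepatocyte markers 10 were called higher. Against controls, the red cell membrane list had a median of 2.78 after neutrons (14 of 17 called higher) and 1.03 after x-rays (9 called higher), and the reticulocyte list 2.28 (13 of 15) and -0.12 (3 of 15). Over all genes, 25.1% were called higher than controls after neutrons and 9.06% after x-rays.

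Cytosolic ribosomal protein genes changed direction with the scaling. Of 50 tested, 40 were called higher after neutrons and 0 lower, with a median of 1.48, while quantile normalization gave 2 higher, 7 lower and a median of -0.07, cyclic loess 4 higher, 7 lower and -0.08, and spike-in centring a median of -0.76. *Rplp1*, a protein of the ribosomal stalk, differed by 2.79 ± 0.24 relative to the array median and by 0.22 with quantile normalization. The antioxidant enzymes gave 6 higher and 1 lower of 20, with a median of 0.19. The share called higher was near the 31% of all genes. *Cat*, catalase, differed by 3.07 ± 0.23 (adjusted p = 4.72e-07) and kept its call with quantile normalization at 1.88. The glutathione peroxidase *Gpx1* and the peroxiredoxin *Prdx2*, both abundant in red cells, differed by 2.49 ± 0.26 and 1.89 ± 0.26, and by -0.10 and -0.09 under that scaling. *Gss*, which makes glutathione, was called lower at -1.75 ± 0.26, with 2 of 6 neutron arrays well above background, and was 0.01 with normexp.

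p53 target genes were lower after neutrons than after x-rays. Of 16 tested, out of 31 listed, 8 were called lower and 1 higher, with a median of -0.73 and a mean level of 0.11 to 0.28 after neutrons, 0.72 to 0.94 after x-rays and -0.05 to 0.18 in controls. *Cdkn1a*, the p21 inhibitor of the cell cycle, had levels of -1.70, -1.46 and -0.69 (lowest, median, highest) after neutrons, 0.08, 0.30 and 0.52 after x-rays and -3.25, -2.92 and -1.73 in controls. The exposures did not overlap. The difference was -1.62 ± 0.20 (adjusted p = 1.34e-05), and both exposures were called above controls, by 1.45 and 3.07. *Zmat3*, an RNA-binding protein gene that p53 induces, was -2.10 to -1.58 after neutrons and -0.49 to 0.07 after x-rays, a difference of -1.57 ± 0.16 (adjusted p = 2.36e-06), and against controls it differed by -0.07 and by 1.5, the latter called. *Plk2*, a stress-induced kinase gene, was not well above background on any neutron array. Relative to the array median it was at least 1.41-fold lower after neutrons than after x-rays. This bound was set by the dimmest signal well above background on each neutron array, or by the probe itself where that was brighter. The limma adjusted p of 0.000352 belongs to the values as measured, and the bound itself was not tested. With normexp *Plk2* differed by 0.77, with no call. *Gadd45a*, a stress gene of cell cycle arrest, was the member called higher, at 1.53 ± 0.33, with overlapping groups, and was not called without the 4 arrays high in hepatocyte markers (1.37), nor was *Plk2* (-1.25). The median of the list lay between -1.26 and -0.36 under the other scalings, apart from -2.97 with spike-in centring, normexp background correction left 0 of the 16 genes called, and 3 were called lower without the 4 arrays high in hepatocyte markers.

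DNA replication genes were mostly lower after neutrons. Of 25 tested, 15 were called lower and 5 higher, with a median of -0.90. *Mcm5*, a subunit of the replicative helicase, was 0.08 to 0.32 after neutrons (median 0.17) and 1.63 to 1.93 after x-rays (median 1.82), against 0.13 to 0.75 in controls. The x-ray mice lay above all others. The difference was -1.61 ± 0.14 (adjusted p = 7.34e-07), on a probe that holds CTCTCT. *Mcm3*, another subunit of the helicase, differed by -1.53 ± 0.17 (adjusted p = 4.99e-06). In contrast, *Lig1*, the ligase that joins replicated fragments, was 9.57 to 10.42 after neutrons and 5.79 to 7.13 after x-rays, a difference of 3.39 ± 0.26 (adjusted p = 4.92e-07), which was 1.68 and still called with quantile normalization. *Tyms*, thymidylate synthase, differed by 1.81 ± 0.34, and its probe ranged from -2.56 to 3.54 among controls. Against controls, 6 of the 25 genes were called lower and 3 higher after neutrons, and 1 lower and 8 higher after x-rays. Over all genes the shares called lower and higher were 13.3% and 25.1% after neutrons, and 8.5% and 9.06% after x-rays. Without the 4 arrays high in hepatocyte markers the direct calls were 6 lower and 1 higher, with a median of -0.86.

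Mitosis genes and the E2f family split within each list. Of 33 mitosis genes 12 were called lower and 7 higher, beside 10.9% and 31% of all genes, with a median of -0.51. Against controls 16 were called higher after neutrons and 23 after x-rays, beside 25.1% and 9.06% of all genes. *Aurka*, a spindle pole kinase gene, differed by -1.71 ± 0.33 with overlapping groups and *Anln*, needed for the cleavage furrow, by -1.52 ± 0.34. *Cdc25b*, a phosphatase gene that starts mitosis, differed by 2.39 ± 0.27 (adjusted p = 4.86e-06), and was 8.10 to 9.24 after neutrons, 5.51 to 7.08 after x-rays and 5.84 to 6.85 in controls. *Pttg1*, the securin gene, differed by 2.38 ± 0.24, the ubiquitin-conjugating enzyme genes *Ube2s* and *Ube2c* by 2.24 ± 0.26 and 2.06 ± 0.26, and *Fzr1*, an activator of the anaphase-promoting complex, by 1.53 ± 0.31. The cyclin gene *Ccna2* differed by 1.38 ± 0.22 and the spindle protein gene *Nusap1* by 1.74 ± 0.25. Both were called above controls after neutrons, and *Ccna2* also after x-rays. With quantile normalization *Pttg1*, *Ube2c* and *Fzr1* differed by 0.67, 0.64 and 0.87, with no call. *Cdc25b*, *Ube2s*, *Ccna2* and *Nusap1* kept their calls under it, at 0.96, 1.31, 0.96 and 0.82. *Fzr1* was also not called after adjustment for probe composition (0.89). *E2f1*, a transcription factor gene that drives entry into S phase, differed by -0.80 ± 0.15 (adjusted p = 0.000282), with -1.22 to -0.87 after neutrons and -0.59 to -0.09 after x-rays. *E2f2*, its relative with a role in red cell precursors, differed in the opposite direction, by 2.03 ± 0.27 (adjusted p = 2.05e-05), which was 0.42 with no call under quantile normalization. The E2f partner gene *Tfdp2* and the retinoblastoma gene *Rb1* differed by 2.54 ± 0.25 and 2.08 ± 0.20, and the pocket protein gene *Rbl1* by -0.98 ± 0.16. In those 8 mice without high hepatocyte markers *Aurka* (-1.58), *Anln* (-1.60), *Fzr1* (1.36) and *E2f1* (-0.79) were not called, and the mitosis list had 7 called lower and 6 higher. *E2f8*, *Mns1*, *Smc2* and *Ncapd2* were not called, with differences of -0.05 ± 0.19, 0.19 ± 0.18, -0.07 ± 0.15 and -0.57 ± 0.16.

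**Figure D3:**
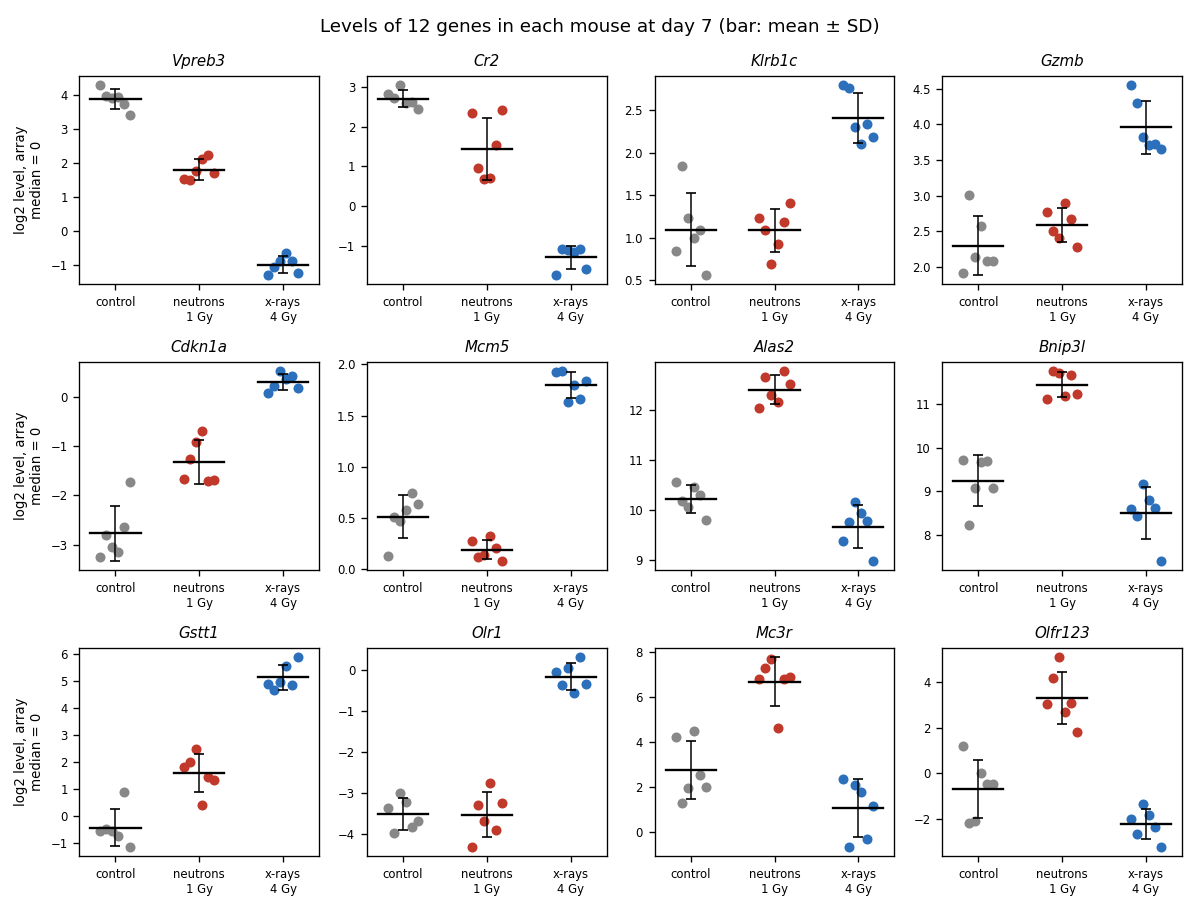
Log2 levels of 12 genes in each mouse (points), with the group mean and SD (bars), for 6 controls, 6 mice given 1 Gy neutrons and 6 given 4 Gy x-rays; each panel has its own axis and 0 is the array median. *Vpreb3*, *Cr2*, *Alas2*, *Bnip3l*, *Mc3r* and *Olfr123* lie higher after neutrons and *Klrb1c*, *Gzmb*, *Cdkn1a*, *Mcm5*, *Gstt1* and *Olr1* higher after x-rays, without overlap between the exposures.

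Genes of energy metabolism and protein turnover were more often called lower after neutrons. Among 33 oxidative phosphorylation subunits 12 were called lower and 4 higher (median -0.48), with *Atp5o* of the ATP synthase at -1.56 ± 0.20 and *Atp5h*, another subunit of it, at 1.83 ± 0.21. Among 11 proteasome subunits 6 were called lower and 1 higher (median -0.86), led by the ATPase *Psmc5* at -1.11 ± 0.16 (adjusted p = 4.04e-05). Without the 4 arrays high in hepatocyte markers the calls were 3 lower and 4 higher for the first list and 1 and 0 for the second. The aminoacyl-tRNA synthetases gave 3 lower and 0 higher of 6. Lipid genes were tested in 18 sterol enzymes, of which 2 were called lower, and in 17 genes of fatty acid oxidation, of which 2 were called lower, with medians of -0.92 and -0.98. These shares, 11.1% and 11.8%, were near the 10.9% of all genes called lower. *Idi1*, of the sterol pathway, was -0.60 to 0.59 after neutrons and 0.74 to 2.70 after x-rays, and *Hadh*, of fatty acid oxidation, was -0.05 to 0.34 and 1.11 to 2.99. In the 8 mice without high hepatocyte markers these medians were -0.51 and -0.56. Liver expresses both lists strongly, and the part of those RNAs in the differences was not tested.

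The largest falls after neutrons, among called genes whose groups did not overlap and that were well above background on all arrays of a group, were led by *Gstt1*, a glutathione transferase. Its levels were 0.42, 1.66 and 2.51 (lowest, median, highest) after neutrons, 4.67, 4.93 and 5.89 after x-rays and -1.13, -0.53 and 0.91 in controls. The difference was -3.54 ± 0.32 (adjusted p = 1.07e-06), and both exposures were called above controls. *Olr1*, the receptor for oxidized low-density lipoprotein, was -4.31 to -2.74 after neutrons, -0.56 to 0.31 after x-rays and -3.98 to -2.98 in controls, a difference of -3.37 ± 0.25 (adjusted p = 4.76e-07), and was well above background on 1 of the 6 neutron arrays. With normexp *Olr1* differed by -0.49, with no call, and *Gstt1* by -4.11, called. Both genes were high in every x-ray mouse.

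The others of the 10 include genes of innate immunity and the acute phase. Complement factor B, *Cfb*, differed by -3.28 ± 0.70, the eosinophil-attracting chemokine *Ccl24* by -2.96 ± 0.53, and the lipopolysaccharide-binding protein *Lbp* by -2.86 ± 0.43. *Lbp* was well above background on 1 of 6 neutron arrays and differed by -0.21 with normexp, with no call. *Cd5l*, secreted by tissue macrophages, differed by -2.80 ± 0.54, the serum amyloid gene *Saa3* by -2.74 ± 0.62 and *C1qa*, a chain of complement C1q made by macrophages, by -2.72 ± 0.64. Relative to the array median, the unnamed transcript *D630039A03Rik* was at least 2.73-fold lower after neutrons, where no array had it well above background. With normexp *D630039A03Rik* differed by 0.14, with no call. Without the 4 arrays high in hepatocyte markers, 5 of the 10 were still called, *Gstt1*, *Olr1*, *D630039A03Rik* and *Lbp* among them. *Cfb*, *Ccl24*, *Cd5l*, *Saa3* and *C1qa* then differed by -2.32, -2.65, -2.71, -2.91 and -2.65, with no call in 5 against 3 mice.

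The largest rises after neutrons were of another kind. The 10 are the unnamed transcripts *D630010B17Rik* and *A830021M18Rik*, the predicted genes *Gm5106* and *Gm10759*, the probe A_55_P2142668 without a gene name, *Fam160a1*, and the genes of receptors with known roles outside blood, namely the melanocortin receptor *Mc3r*, the odorant receptors *Olfr123* and *Olfr1466* and the bitter taste receptor *Tas2r113*. Their differences ran from 5.42 to 6.07. The other detected probe of *Fam160a1* differed by -0.13, in the opposite direction. *Mc3r*, which acts in the hypothalamus, had levels of 4.60, 6.83 and 7.68 (lowest, median, highest) after neutrons, -0.68, 1.44 and 2.35 after x-rays and 1.28, 2.25 and 4.45 in controls, a difference of 5.61 ± 0.59 (adjusted p = 2.73e-06). *Olfr123* was 1.83 to 5.10 after neutrons, -3.24 to -1.36 after x-rays and -2.16 to 1.18 in controls, a difference of 5.57 ± 0.48 (adjusted p = 7.45e-07). *Tas2r113* differed by 5.47 ± 0.57. The 10 stayed called without the 4 arrays high in hepatocyte markers. Over all 102 odorant, vomeronasal and taste receptor genes tested, a group chosen after these values were seen, 61 were called higher (59.8%) and 0 lower, with a median of 1.53.

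Of the 10 probes with the largest rises, 8 hold the letters CTCTCT, and none of the 10 with the largest falls do. Part of each probe is shown so that the repeat can be seen beside its difference. Each line is a stretch of 30 of the 60 bases of a probe, 5′ to 3′, as the array files give it, with the run of alternating C and T in capitals; positions are in mm9, the build of those files.

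Fam160a1 (difference 5.70, chr3:85534184-85534243, minus strand): TCTCTCTCTgctgagaacagcatggtggcc
Mc3r (5.61, chr2:172076555-172076614, plus strand): ttTCTCTCTtgctttaatcgtgatgcttgg
Olfr1466 (5.48, chr19:13416809-13416868, plus strand): CTCTCTCTtgctctgatagacatgttaatg
Tas2r113 (5.47, chr6:132843899-132843958, plus strand): ttggctTCTCTCTCTCTgattttttggctc
Gstt1 (-3.54, chr10:75246560-75246619, minus strand): ttccccttgagtctgggtaataaactgggg
Olr1 (-3.37, chr6:129435316-129435375, minus strand): gaaataactgagcatatattttgagaattt

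The coordinates are those of the whole probe. The letters were searched in the probe sequence as given, on that strand only. They occur in 866 of the 39429 probes of the array (2.20%) and in 357 of the 10863 tested (3.29%). They occur in 212 of the genes called higher (6.29%), in 86 of the 328 genes called higher by 3 or more (26.2%) and in 14 of the genes called lower (1.18%). Probes with CTCTCT had a median difference of 1.70, with 59.4% called higher and 3.92% lower, and probes with CACACA, another dinucleotide repeat, a median of 0.84, with 44.8% called higher. Probes with neither had a median of 0.21, with 29.7% called higher. The CTCTCT probes differed from the controls by a median of 1.21 after neutrons and -0.34 after x-rays. Where the first CTCTCT began within bases 1 to 18 of the probe, the median difference was 1.98, within bases 19 to 36 it was 1.61, and within bases 37 to 55 it was 1.4.

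**Figure D4:**
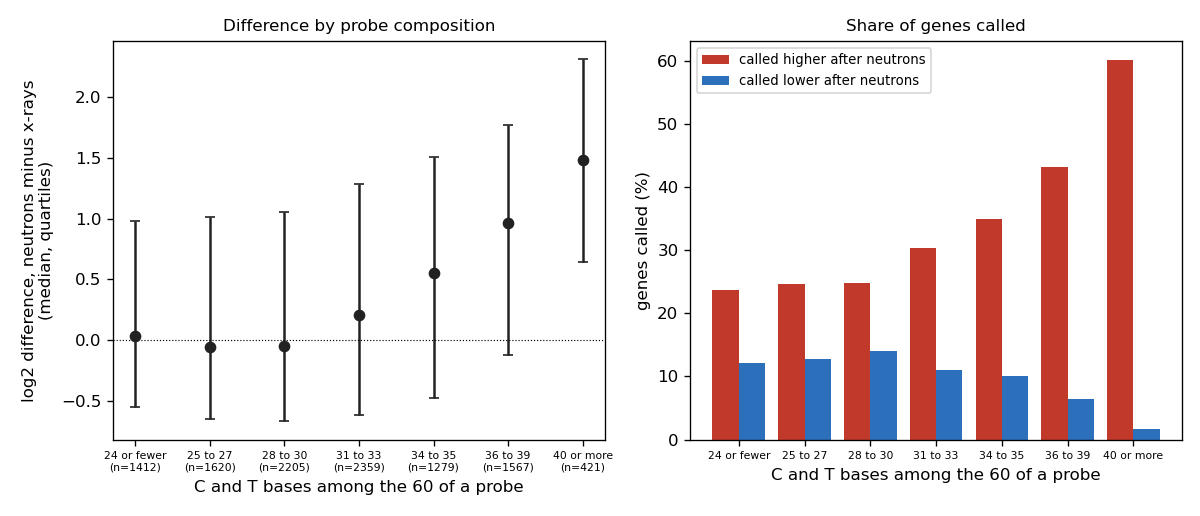
Left, log2 difference between 1 Gy neutrons and 4 Gy x-rays by the number of C and T bases among the 60 of a probe, as the median (point) and the quartiles (bars) over genes; right, the percentage of these genes called higher (red) and lower (blue) after neutrons. The median rises from 0.03 at 24 or fewer C and T bases to 1.48 at 40 or more, where 60.1% of 421 genes were called higher.

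The difference also moved with the number of C and T bases in the probe as a whole. The median was 0.03 for the 1412 probes with 24 or fewer, -0.05 for the 2205 with 28 to 30, 0.96 for the 1567 with 36 to 39 and 1.48 for the 421 with 40 or more. The share called higher went from 23.7% to 60.1% between the first and the last of these. When each array was adjusted for the numbers of C, G and T in the probes, 4326 genes were called (39.8%), 2745 higher and 1581 lower, and 3684 of them were among the 4553. *Mc3r* then differed by 5.64, *Olfr123* by 4.32 and *Tas2r113* by 5.50, all called, and 45 of the 102 receptor genes were called higher. When probes with either repeat or with 36 or more C and T bases were left out, 3358 of 8451 genes were called, 2275 higher and 1083 lower. Under that restriction the reticulocyte list had a median of 2.53, the B cell list 0.54, the NK list -0.99, the p53 list -0.76 and the DNA replication list -0.93. The part that probe sequence has in the rises of single genes was not tested.

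**Figure D5:**
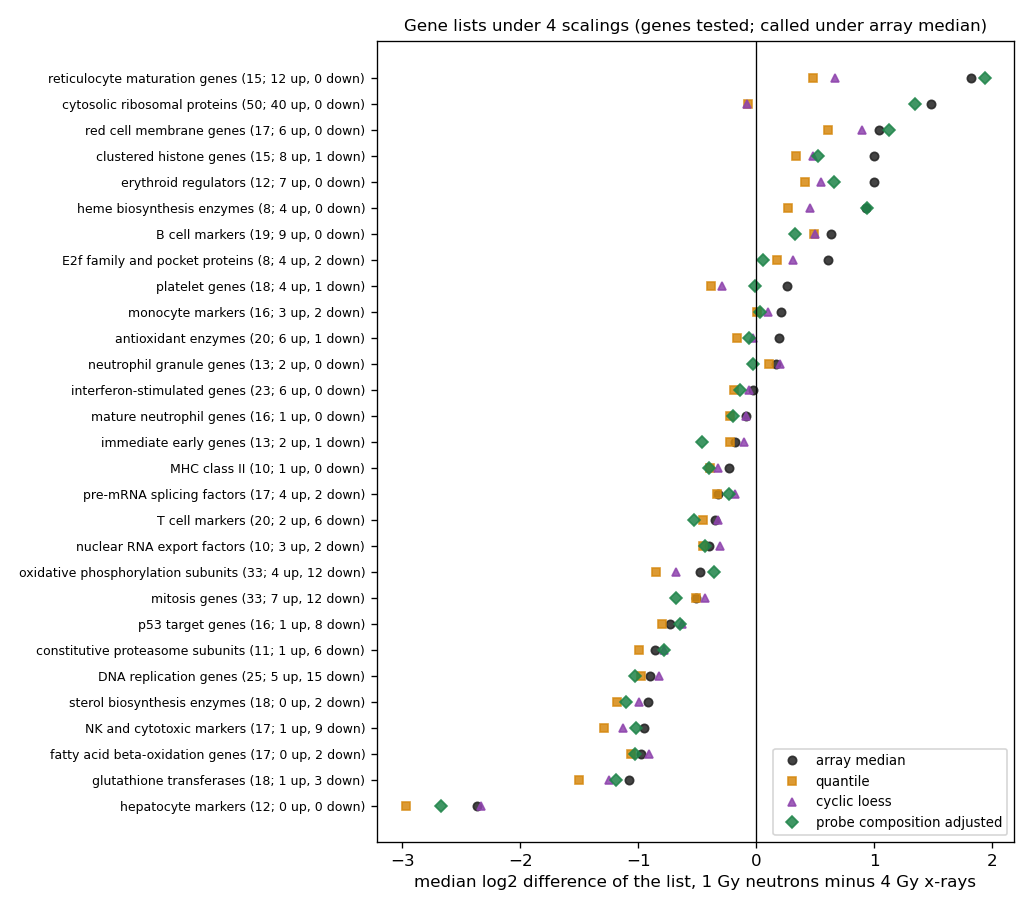
Median log2 difference of each gene list with 8 or more genes tested, 1 Gy neutrons minus 4 Gy x-rays, under 4 scalings of the same arrays (symbols), with the number of genes tested and called under the array median. The NK, p53 and DNA replication lists stay below 0 and the B cell and red cell lists above 0 under these 4, the ribosomal list moves from 1.48 to -0.07 with quantile normalization, and with spike-in centring, not drawn, all medians are below 0.

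Some genes were called on opposite sides of the controls. Of the 10863 genes, 89 (0.819%) were called in both comparisons with controls in opposite directions, 85 of them higher after neutrons and lower after x-rays, and all 89 were also called directly. Scan date cannot be told apart from exposure on the x-ray side of these counts. The 5 with the largest difference in that direction were *Aldh3b2*, an aldehyde dehydrogenase gene, *Rtp2*, which carries odorant receptors to the cell surface, the folate receptor gene *Folr1*, *Tmem104* and *Cib3*. The probes of *Aldh3b2*, *Rtp2* and *Tmem104* hold CTCTCT or CACACA or have 36 or more C and T bases. After adjustment for probe composition they differed by 5.02, 4.31 and 4.01, all called. *Aldh3b2* was 2.28 to 3.20 after neutrons, -4.04 to -1.58 after x-rays and -0.01 to 0.91 in controls, so that the 3 groups did not overlap. Its difference between exposures was 5.26 ± 0.32 (adjusted p = 2.2e-07). The other 4 genes were lower after neutrons and higher after x-rays. They were *Trip13*, an ATPase gene of the mitotic checkpoint, the endoplasmic reticulum lectin gene *Mlec*, *Cables1*, which links kinases of the cell cycle, and the glycolytic gene *Pfkl*. *Trip13* was -3.61 to -2.86 after neutrons, -1.59 to -1.0 after x-rays and -2.33 to -1.82 in controls, with a difference of -2.10 ± 0.17 (adjusted p = 6.87e-07), and was well above background on 1 neutron array. *Pfkl* differed by -1.36 ± 0.18. Neither *Mlec* nor *Cables1* was well above background on any neutron array. Relative to the array median they were at least 1.62-fold and at least 1.94-fold lower after neutrons than after x-rays. With normexp *Mlec*, *Cables1*, *Trip13* and *Pfkl* differed by 0.71, 0.53, 0.22 and -0.37, with no call.

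The direct calls were also placed by the calls of the same genes against controls. Of the 3371 genes higher after neutrons, 1948 were called higher than controls after neutrons and not called after x-rays. A further 154 were lower than controls after x-rays and not called after neutrons, and 1070 were called in neither. Of the 1182 genes lower after neutrons, 407 were called lower than controls after neutrons and not called after x-rays, 284 were higher than controls after x-rays and not called after neutrons, and 462 were called in neither. Both sets of counts rest on the same 6 control mice. With scan date as a block the medians of the B cell, NK, p53, DNA replication and reticulocyte lists between exposures were 0.65, -1.01, -0.66, -0.95 and 2.21.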

How the data were processed

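The authors purified blood RNA, removed globin transcripts, labelled it with one dye and scanned each array. The deposited intensities were background-corrected within each array by Agilent Feature Extraction 12.0.2 and are not normalized between arrays. The authors' deposited table of log2 values was not used, because 0 of the 12 columns for these mice followed their own array. Here, outlier spots were dropped, intensities were log2-transformed and averaged over spots of a probe, and the median over 19808 detected probes was subtracted from each array. A probe counted as detected if fewer than 25% of all day 1 and day 7 arrays had it dim or as an outlier. Probes also had to differ 1.5-fold from their median on 20% of those arrays, and the brightest stood for each gene (10863 genes). Gene names came through transcript accessions for 28330 of 39429 probes.

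Groups were compared 2-sided with limma 3.58.1 (lmFit, eBayes) in R 4.3.3, 6 against 6 arrays, without covariates. Each array is 1 mouse, and 6 mice a group limit the precision. The samples and the 36 gene lists were chosen with earlier results of these data known. Genes named are the 10 largest called rises and falls without overlap, up to 4 called members of a list, 14 cell cycle genes of interest, and the 5 largest in each direction called on opposite sides of the controls. In a simulation of this comparison with 10863 genes, 86 of 100 genes changed by 2 on the log2 scale were recovered, and 48 of 100 changed by 1. Some genes that this rule names are not reported here. Alternatives covered scaling, background, filters, probe choice, test, batches and each mouse left out. Adjustment for probe composition, a filter on it, leaving out 4 arrays and the date block against controls were chosen after seeing the data.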

Additional observations from a re-analysis of the deposited data

Results flagged for a closer look

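A mouse was looked for that stood far from the other 5 of its group, over 296 sets of 6 values, and 15 were found. Chance alone gives about 1 in 20. Each ratio below is the gap to the nearest mouse over the whole range of the group, which has to exceed 0.625. After neutrons, replicate 1 stood apart in hepatocyte markers (mean level 3.81, ratio 0.77). Replicate 4 stood apart, below the others, in platelet genes (mean level 4.18, 0.646), *Gm10759* (0.58, 0.814), *Mc3r* (4.60, 0.703), A_55_P2142668 (5.28, 0.633), *Rplp0* (10.74, 0.68) and *Mns1* (-0.72, 0.736), and above them in *Tars* (1.11, 0.64). Replicate 5 was low in *C1qa* (-3.53, 0.797) and high in *Aurka* (-0.21, 0.627), and replicate 3 was high in *Tdg* (1.04, 0.719). After x-rays, replicate 6 was low in nucleotide excision repair genes (mean level 0.35, 0.641) and high in *Hadh* (2.99, 0.628), with a hepatocyte marker level of 7.36. Replicate 1 was high in end joining genes (mean level -1.42, 0.814) and in *Ung* (5.90, 0.694). The part of hepatocyte markers, signal and probe sequence in these values was not tested.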

How the results depend on the processing

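The count of genes called between exposures stayed within 1.5 times of 4553 under most settings. It was 7305 with spike-in centring, 504 with normexp background correction, 14112 without the detection filter, which tests 26314 genes, 2163 with scan date as a block and 2621 without the 4 arrays high in hepatocyte markers, which leaves 5 against 3 mice. With normexp, the comparisons with controls gave 1249 calls after neutrons and 312 after x-rays, and scan date as a block, chosen after seeing the data, gave 1596 after neutrons. Other causes were not tested. Leaving out 1 mouse gave 3903 to 4848 calls between exposures, 3647 to 4334 for neutrons against controls and 1481 to 2026 for x-rays against controls. The replicate block left 3401, 2905 and 1385 calls, but 2 of 6 numbers paired arrays with a correlation over 0.1, so the numbers were not taken as pairs. Slide as a fixed block could not be fitted. Genes called in 1 direction under the array median and 8 alternatives (the other scalings and centrings, normexp, dim spots left out and composition adjustment, but not spike-in centring) numbered 335 higher and 116 lower. Without normexp they numbered 1552 and 610.

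With spike-in centring these genes turned negative: *Bcl2l1* -0.11, *Gstm5* -0.11, *Rb1* -0.17, *Tfrc* -0.18, *Ube2c* -0.18, *Gng11* -0.20, *E2f2* -0.21, *Isg15* -0.28, *Rsad2* -0.32, *Prdx2* -0.35, *Atp5h* -0.41, *Tyms* -0.43, *Nusap1* -0.50, *Cpox* -0.54, *Cd8b1* -0.64, *Fzr1* -0.71, *Gadd45a* -0.71, *Ccna2* -0.86, *S100a9* -0.90, *Ung* -0.98, *Cd22* -0.99, *H2-Ob* -1.01, *Csf1r* -1.23, *Mns1* -2.05 and *Ube2s*, just below 0.

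With normexp, *Csf1r* was -0.28, *Gss* 0.01, *Anln* 0.02, *D630039A03Rik* 0.14, *Trip13* 0.22, *E2f8* 0.30, *Cables1* 0.53, *Exo1* 0.60, *Mlec* 0.71 and *Plk2* 0.77. With quantile normalization, *Fech* was -0.01, *Slc25a37* -0.02, *Prdx2* -0.09, *Gpx1* -0.10, *Epb41* -0.11, *Bcl2l1* -0.12 and *S100a9* -0.63, and with cyclic loess *S100a9* was -0.54, *E2f8* 0.01 and *Smc2* 0.08. *Mns1* was -0.20 with centring on all probes, -0.10 after composition adjustment and -0.37 with dim spots left out. *Tdg* was -0.72 without the variation filter, and *Smc2* 0.05 with the scan date block. *E2f8*, not called, was -0.14 to 0.04 with 1 mouse left out, and above 0 without neutron replicate 6 or x-ray replicates 1 or 5. These causes were not tested.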

Other observations

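DNA repair lists were small and split. Mismatch repair gave 0 higher and 2 lower of 3 genes after neutrons, base excision repair 2 and 0 of 7, nucleotide excision repair 1 and 2 of 4, end joining 0 and 1 of 5 and homologous recombination 1 and 2 of 6. Over all genes 31% were called higher and 10.9% lower. The glycosylase gene *Ung* differed by 1.27 ± 0.20. It was 0.22 with quantile normalization, 0.30 with cyclic loess and 0.04 with normexp, with no call. For *Tdg*, at 2.99 ± 0.37, the other detected probe differed in the opposite direction. The mismatch exonuclease gene *Exo1* differed by -1.67 ± 0.34, with 1 of 6 neutron arrays well above background.

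Of 23 interferon-stimulated genes 6 were called higher and 0 lower after neutrons, with a median of -0.03. This is 26.1%, below the 31% of all genes called higher. *Irf7*, the regulator of interferon synthesis, was 2.86 to 4.15 after neutrons and 0.39 to 2.16 after x-rays, a difference of 2.26 ± 0.30 (limma adjusted p = 2.32e-05) that was 2.06 with quantile normalization. *Isg15* and *Rsad2* differed by 1.96 ± 0.29 and 1.92 ± 0.25, and by 0.18 and 0.05 under that scaling. Clustered histone genes gave 8 higher and 1 lower of 15 (median 1.00), with *Hist1h2ae* at 2.50 ± 0.26 and the linker histone gene *H1f5* at -1.08 ± 0.18. Immediate early genes gave 2 higher and 1 lower of 13, with *Jund* at 2.84 ± 0.26 and *Myc* at -1.18 ± 0.17. The BCL2 family gave 1 and 1 of 7, with the survival gene *Bcl2l1* at 2.13 ± 0.25 and at -0.12 with quantile normalization. Splicing factors gave 4 higher and 2 lower of 17, nuclear RNA export factors 3 and 2 of 10, E2f and pocket protein genes 4 and 2 of 8, and glutathione transferases 1 and 3 of 18, with *Gstm5* at 2.14 ± 0.26. The shares called higher among immediate early, BCL2, splicing and export genes were near or below the 31% of all genes, where 10.9% were called lower. Among called genes with further detected probes, all those probes shared the direction for 435 of 661 genes higher after neutrons (65.8%) and for 197 of 236 genes lower (83.5%).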
